A study of Mus musculus with 12 samples.

Results

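The linker histone H1 genes described here are the 6 mouse genes Hist1h1t, Hist1h1a, Hist1h1c, Hist1h1d, Hist1h1e and Hist1h1b, taken by their Ensembl IDs from a table of 20345 genes. The IDs are ENSMUSG00000036211 (Hist1h1t), ENSMUSG00000049539 (Hist1h1a), ENSMUSG00000036181 (Hist1h1c), ENSMUSG00000052565 (Hist1h1d), ENSMUSG00000051627 (Hist1h1e) and ENSMUSG00000058773 (Hist1h1b), and this pairing of IDs with names came with the list of genes, because neither the table nor the reference gene list gives it. The genes were chosen by family, with their RPKM in all 6 columns already seen, so all values below are descriptions and carry no test. RNA depleted of ribosomal RNA was sequenced from mouse late spermatocytes, both as recovered in a MIWI immunoprecipitate (IP) and as the starting material (input). MIWI is a PIWI-clade Argonaute protein that carries pachytene piRNAs. The 3 genotypes were Miwi ADH/-, in which the single remaining allele is ADH, an allele known to alter the catalytic residues of the protein; Miwi -/-, which has no intact allele and whose IP is the background of the antibody; and Miwi +/-, the control with 1 wild-type allele. All animals, controls included, therefore lacked at least 1 Miwi allele. The labels give neither strain nor age, and do not say which samples came from sorted cells and which from whole testes.

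Linker histones bind the DNA that enters and leaves the nucleosome and help to fold nucleosomes into compact chromatin. Hist1h1t encodes H1t, the testis-specific variant that male germ cells make from the pachytene stage on. Hist1h1a encodes a variant abundant in spermatogonia and early spermatocytes, which H1t largely replaces as meiosis proceeds. Hist1h1b, Hist1h1c, Hist1h1d and Hist1h1e encode the replication-dependent somatic variants. Most replication-dependent histone mRNAs end in a stem-loop in place of a poly(A) tail, so a library that is depleted of ribosomal RNA, and not selected for poly(A), can hold them.

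The 6 genes lie in the histone gene cluster of chromosome 13, and RefSeq lists them under the newer symbols H1f6 (Hist1h1t), H1f1 (Hist1h1a), H1f2 (Hist1h1c), H1f3 (Hist1h1d), H1f4 (Hist1h1e) and H1f5 (Hist1h1b). The 125 bases before each annotated start are shown to set side by side the motifs before genes whose RNA levels differed by more than 1000-fold here. Capitals mark matches on either strand to 3 motifs. One is the H1 box of H1 promoters, searched as AAACACA. Another is the CCAAT box, searched by those letters. The last is a TATA box, searched as TATAAA. The sequences are RefSeq's for build GRCm38.p6, read 5′ to 3′ on the gene's strand, and end at the base before the start.
Hist1h1t, chr13:23695686-23695810, plus strand: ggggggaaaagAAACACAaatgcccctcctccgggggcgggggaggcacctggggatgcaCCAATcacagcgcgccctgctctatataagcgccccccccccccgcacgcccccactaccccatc
Hist1h1a, chr13:23763543-23763667, plus strand: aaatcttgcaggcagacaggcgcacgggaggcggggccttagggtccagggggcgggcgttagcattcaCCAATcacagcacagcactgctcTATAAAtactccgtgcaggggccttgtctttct
Hist1h1c, chr13:23738682-23738806, plus strand: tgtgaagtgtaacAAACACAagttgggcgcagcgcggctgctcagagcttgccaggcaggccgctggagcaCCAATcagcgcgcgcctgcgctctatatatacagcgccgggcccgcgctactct
Hist1h1d, chr13:23554907-23555031, plus strand: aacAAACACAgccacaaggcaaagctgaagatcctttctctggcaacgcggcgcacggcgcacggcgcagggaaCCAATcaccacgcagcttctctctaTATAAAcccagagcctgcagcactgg
Hist1h1e, chr13:23622559-23622683, minus strand: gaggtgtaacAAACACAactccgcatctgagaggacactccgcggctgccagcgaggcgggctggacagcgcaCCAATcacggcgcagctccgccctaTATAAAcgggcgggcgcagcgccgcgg
Hist1h1b, chr13:21780626-21780750, minus strand: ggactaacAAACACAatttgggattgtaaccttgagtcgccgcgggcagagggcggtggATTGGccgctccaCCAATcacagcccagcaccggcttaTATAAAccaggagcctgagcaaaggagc

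The H1 box stood upstream of 5 of the 6 genes, with its first base at -114 in Hist1h1t, -112 in Hist1h1c, -122 in Hist1h1d, -115 in Hist1h1e and -117 in Hist1h1b, counted from the annotated start. Hist1h1a had no AAACACA in the 250 bases searched. A CCAAT box was present in all 6, with its first base nearest the start at -65 in Hist1h1t and between -56 and -51 in the others. TATAAA was found in 4 of the 6, and Hist1h1t and Hist1h1c lack those 6 letters. Both hold the run tatata in the sequences above, which the search did not count. Lack of TATAAA is therefore not lack of every TATA-like sequence. Across 32851 RefSeq promoters, 6.25% hold the H1 box in the 250 bases before the start, 33.8% hold the CCAAT box, 12.4% hold the TATA box and 0.390% hold all 3, as do 3 of the 6 H1 genes (Hist1h1d, Hist1h1e and Hist1h1b). No motif match overlapped a match to another motif in these genes. A match is a run of letters and not a bound site.

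**Figure D1:**
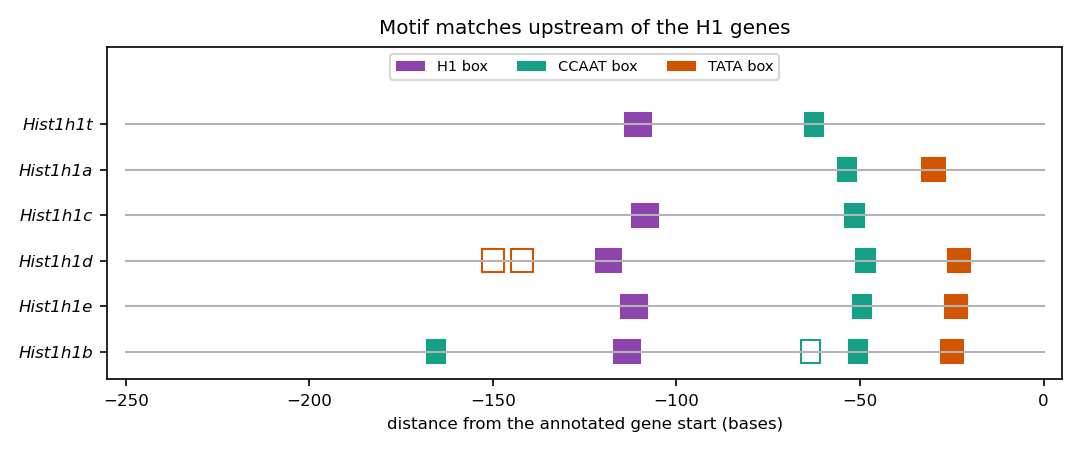
Matches to the 3 motifs in the 250 bases before each H1 gene; the x axis is the distance from the annotated start in bases, filled boxes are matches on the gene's strand and open boxes on the opposite strand. The H1 box lies between -122 and -112 in 5 genes and has no match in Hist1h1a.

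The labels describe 12 samples, 2 in each of 6 groups, and the table gives 1 column of RPKM (reads per 1000 bases of gene and per 1000000 reads) per group. There is thus no replicate spread, and every interval below is an exact 95% interval for counting error of the reads only, which PCR copies make too narrow. Whole read numbers follow from the steps of the RPKM values. Listed genes held 761525 to 3706479 reads in the IP columns, with Miwi -/- the shallowest, and 2627634 to 3918947 reads in the input columns. Differences are on the log2(RPKM + 1) scale, and a gene is counted when it was at least 2-fold apart, among the 12246 genes that reach 1 RPKM in 2 or more columns (called filtered genes below). Of the H1 genes 4 of 6 pass that filter, and Hist1h1d and Hist1h1b do not. Each main count out of 6 below can therefore come only from the 4 that pass. Marker genes of late spermatocytes and of other testis cells could not be looked up by name in this table, so the cell type on the labels was not checked against them. In RNA from a mixture of cells, fewer cells that express a gene and less RNA per cell cannot be told apart.

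Hist1h1t, the spermatocyte variant, was the most abundant of the 6 H1 RNAs in every column. Its level was 1796 RPKM in the Miwi ADH/- IP, 248 RPKM in the Miwi -/- IP and 972 RPKM in the Miwi +/- IP. In the inputs it stood at 774 RPKM in Miwi ADH/-, 630 RPKM in Miwi -/- and 587 RPKM in Miwi +/-. In RPKM the IPs thus spread widely around inputs that lay close to each other, with the Miwi ADH/- and Miwi +/- IPs above every input and the Miwi -/- IP below every input. RPKM is set by the read total, of which listed genes held only 18.3% in the Miwi -/- IP. They held 35.0% in the Miwi ADH/- IP, 29.3% in the Miwi +/- IP and 47.9% to 53.7% in the inputs. Among all listed genes Hist1h1t ranked 6 in the Miwi ADH/- IP, 49 in the Miwi -/- IP and 11 in the Miwi +/- IP, against 58, 64 and 63 in the inputs of the same genotypes. As a share of the summed RPKM of the 6 genes, Hist1h1t held 99.3%, 88.2% and 94.8% in the Miwi ADH/-, -/- and +/- IPs, against 96.7%, 91.9% and 84.1% in the matching inputs.

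Hist1h1a, the early germ cell variant, ranked next in every column, though within counting error of Hist1h1e in the Miwi -/- IP. It had 10.9 RPKM in the Miwi ADH/- IP, 15.7 RPKM in the Miwi -/- IP and 45.7 RPKM in the Miwi +/- IP. Its input levels were 22.4 RPKM in Miwi ADH/-, 48.6 RPKM in Miwi -/- and 102 RPKM in Miwi +/-. Both mutants were below Miwi +/- in the IP and in the input, and each IP was below its own input.

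Hist1h1c, a somatic variant, had 2.06 RPKM (34 reads) in the Miwi ADH/- IP, 3.53 RPKM (23 reads) in the Miwi -/- IP and 3.27 RPKM (30 reads) in the Miwi +/- IP. Its inputs had 3.04 RPKM (26 reads) in Miwi ADH/-, 3.97 RPKM (44 reads) in Miwi -/- and 7.36 RPKM (86 reads) in Miwi +/-. The Miwi +/- input stood apart as the highest column, and the counting intervals of the other 5 overlapped, except that the Miwi ADH/- IP (1.43 to 2.88 RPKM) ended just below the start of the Miwi -/- input (2.89 to 5.33 RPKM).

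Hist1h1e, another somatic variant, was the only member whose highest column was the Miwi -/- IP. It had 0.126 RPKM (1 read) in the Miwi ADH/- IP, 14.1 RPKM (44 reads) in the Miwi -/- IP and 4.09 RPKM (18 reads) in the Miwi +/- IP. The inputs held 0.487 RPKM (2 reads) in Miwi ADH/-, 2.07 RPKM (11 reads) in Miwi -/- and 1.25 RPKM (7 reads) in Miwi +/-. The Miwi -/- column was highest and the Miwi ADH/- column lowest among the IPs and also among the inputs, and the counting intervals of the 3 inputs overlap.

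Hist1h1d and Hist1h1b, both somatic variants, were near the limit of detection. Hist1h1d is listed at 0 in all 3 IPs, and its inputs had 2 reads in Miwi ADH/- (0.0954 RPKM), 7 in Miwi -/- (0.258 RPKM) and 9 in Miwi +/- (0.314 RPKM). A count of 0 allows up to 3 reads, which for Hist1h1d is 0.0742 RPKM in the Miwi ADH/- IP, 0.188 RPKM in the Miwi -/- IP and 0.133 RPKM in the Miwi +/- IP. Hist1h1b had 2 reads (0.379 RPKM) in the Miwi -/- input and is listed at 0 in the other 5 columns, where 3 reads would be worth 0.382 to 0.968 RPKM. No difference between columns was detectable for Hist1h1b at this depth.

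**Figure D2:**
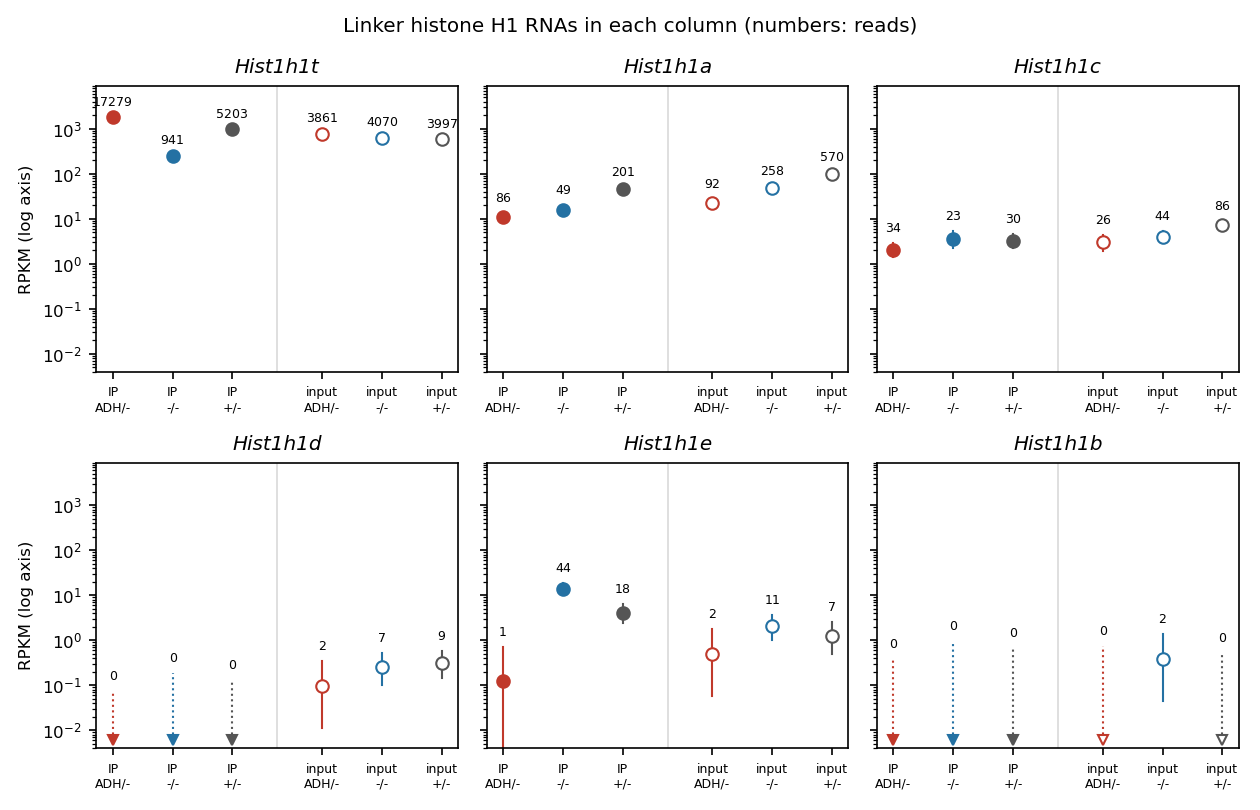
RPKM of each H1 gene in the 6 columns on a log axis, with exact 95% counting intervals as lines and read numbers above; filled points are IPs, open points inputs, and triangles mark columns listed at 0, with a dotted line up to the worth of 3 reads. Hist1h1t runs from 248 to 1796 RPKM, Hist1h1a from 10.9 to 102 RPKM, and the other 4 genes stay at or below 14.1 RPKM.

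Per length, the order in the inputs was Hist1h1t, Hist1h1a, Hist1h1c, Hist1h1e and Hist1h1d in all 3 genotypes, with Hist1h1b at 0 in Miwi ADH/- and Miwi +/- and next to Hist1h1d in Miwi -/-. The counting intervals of Hist1h1e and Hist1h1d overlapped in Miwi ADH/- and Miwi +/-, as did those of Hist1h1c and Hist1h1e in Miwi -/-. In Miwi +/- the overlap was slight, at 0.502 to 2.57 RPKM for Hist1h1e and 0.144 to 0.597 RPKM for Hist1h1d. Such overlap does not show that 2 levels were alike, and no interval of their ratio was computed. Among the IPs, Hist1h1e stood within counting error of Hist1h1a in Miwi -/- and of Hist1h1c in Miwi +/-. The scale depends on the gene lengths used. The steps of the values imply lengths of 909 bases for Hist1h1t, 747 for Hist1h1a, 748 for Hist1h1e and 743 for Hist1h1b, but 1560 for Hist1h1c and 3821 for Hist1h1d. RefSeq gives 735, 745, 782 and 794 bases for the first 4 of these, and 725 for Hist1h1c and 776 for Hist1h1d. On the RefSeq lengths Hist1h1c would stand at 4.43 to 15.8 RPKM and Hist1h1d at no more than 1.55 RPKM, which keeps Hist1h1t, Hist1h1a and Hist1h1c in that order in the inputs but puts Hist1h1d (1.55 RPKM) above Hist1h1e (1.19 RPKM) in the Miwi +/- input. In the Miwi ADH/- input the pair would be level, at 0.470 RPKM for Hist1h1d and 0.466 RPKM for Hist1h1e from 2 reads each.

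Input RNA addresses how the starting material differed between genotypes. In Miwi ADH/- against Miwi +/-, Hist1h1a was 4.54-fold lower, with an interval of 3.64 to 5.72 and a log2 difference of -2.13. In that comparison 0.294% of the filtered genes lay lower. Hist1h1c was 2.42-fold lower (1.55 to 3.92), a log2 difference of -1.05 that 93.7% of the filtered genes exceeded. Hist1h1t was 1.32-fold higher (1.26 to 1.38), a log2 difference of 0.40, while Hist1h1d and Hist1h1e had intervals that include 1. In all, 0 of the 6 genes were at least 2-fold higher and 2 were at least 2-fold lower, where 7.80% of the filtered genes were higher and 7.42% lower. The median log2 difference was -0.43 over the 6 genes, -0.82 over the 4 that pass the filter and -0.16 over all filtered genes. Once the median of all filtered genes was taken off, Hist1h1c was no longer 2-fold lower.

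In Miwi -/- against Miwi +/- inputs, Hist1h1a and Hist1h1c were again the lowest of the H1 genes. Hist1h1a was 2.09-fold lower (1.80 to 2.44), a log2 difference of -1.05, and Hist1h1c was 1.85-fold lower (1.27 to 2.73). Hist1h1t was 1.07-fold higher (1.03 to 1.12), and the interval of Hist1h1e, 0.587 to 5.04, includes 1. Of the 6 genes 0 were at least 2-fold higher and 1, Hist1h1a, was at least 2-fold lower, where 4.47% of the filtered genes were higher and 10.6% lower. With median-of-ratios scaling no member reached 2-fold. Both mutants are set against the same Miwi +/- column here.

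Set against each other, the Miwi ADH/- input had less Hist1h1a than the Miwi -/- input by 2.17-fold (1.70 to 2.78) and 1.23 times as much Hist1h1t (1.17 to 1.28). Of the 6 genes 0 were at least 2-fold higher and 2, Hist1h1a and Hist1h1e, at least 2-fold lower, where 12.6% of the filtered genes were higher and 6.54% lower. The Hist1h1e value rests on 2 and 11 reads and has an interval of the ratio from 0.0253 to 1.08. Relative to the median of -0.18, neither gene reached 2-fold.

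The ratio of Hist1h1t to Hist1h1a within a column does not depend on how columns are scaled to each other. In the IPs it was 165 (134 to 207) in Miwi ADH/-, 15.8 (11.8 to 21.5) in Miwi -/- and 21.3 (18.5 to 24.6) in Miwi +/-. In the inputs it was 34.5 (28.0 to 42.9) in Miwi ADH/-, 13.0 (11.4 to 14.8) in Miwi -/- and 5.76 (5.28 to 6.30) in Miwi +/-. The input intervals of the 3 genotypes do not overlap. The ratio was 5.98 times as high in the Miwi ADH/- input as in the Miwi +/- input (4.77 to 7.58), and 2.25 times as high in the Miwi -/- input as in the Miwi +/- input (1.93 to 2.63). Markers of early germ cells were not available by name, so a change in cell mixture was not tested.

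**Figure D3:**
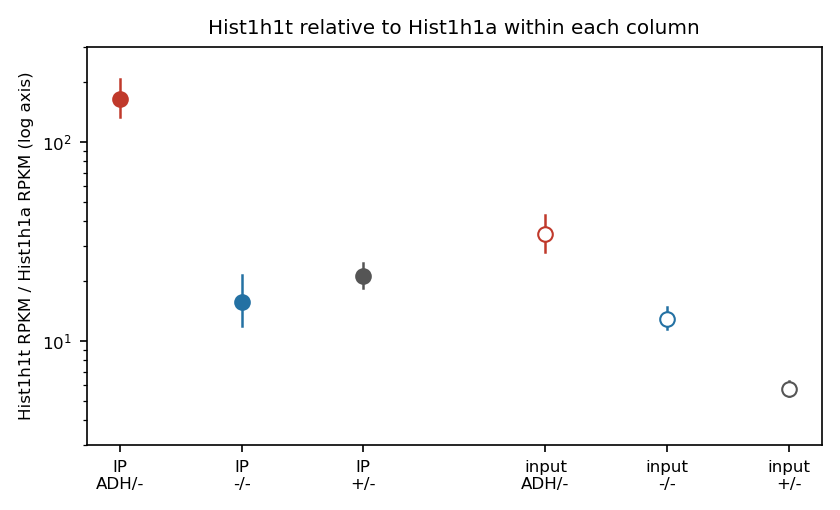
Hist1h1t RPKM divided by Hist1h1a RPKM within each column, on a log axis, with exact 95% counting intervals; filled points are IPs and open points inputs. The input ratio is 34.5 in Miwi ADH/-, 13.0 in Miwi -/- and 5.76 in Miwi +/-, and the Miwi ADH/- IP is highest at 165.

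The IP columns, set against their own inputs, address which H1 RNAs the antibody recovered, with Miwi -/- as its background. Hist1h1t was 2.32-fold higher in the IP than in the input of Miwi ADH/- (2.24 to 2.40), 0.394 times its input in Miwi -/- (0.366 to 0.423) and 1.66-fold higher in the IP in Miwi +/- (1.59 to 1.73). The Miwi ADH/- and Miwi +/- intervals lie above 1 and that of Miwi -/- below it. IP columns as a whole lay below their inputs, with a median log2 difference over all filtered genes of -0.41 in Miwi ADH/-, -1.37 in Miwi -/- and -0.77 in Miwi +/-. From these medians, Hist1h1t lay 1.62 higher in Miwi ADH/-, 0.03 higher in Miwi -/- and 1.5 higher in Miwi +/-. In Miwi -/- it thus sat at the middle of all genes, with 48.8% of the filtered genes above it, against 2.76% in Miwi ADH/- and 6.97% in Miwi +/-.

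Hist1h1a was 0.485 times its input in the Miwi ADH/- IP (0.357 to 0.658), 0.323 times in the Miwi -/- IP (0.233 to 0.440) and 0.449 times in the Miwi +/- IP (0.380 to 0.528). On the log2 scale these lay at -0.57, -0.20 and -0.37 from the medians of their comparisons, a little on the lower side of the middle. Within the columns, Hist1h1t gained on Hist1h1a from input to IP by 4.79-fold in Miwi ADH/- (3.52 to 6.51), 1.22-fold in Miwi -/- (0.886 to 1.70) and 3.69-fold in Miwi +/- (3.12 to 4.38). The interval includes 1 in Miwi -/- alone.

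Hist1h1e had the opposite order of genotypes, though only Miwi ADH/- and Miwi -/- differed beyond counting error. Its IP was 6.81-fold above input in Miwi -/- (3.46 to 14.6) and 3.27-fold above input in Miwi +/- (1.30 to 9.27), while Miwi ADH/- had 1 IP read and 2 input reads, a ratio of 0.259 (0.00440 to 4.98). In Miwi -/- 0.506% of the filtered genes had a larger log2 difference than its 2.30. Hist1h1e gained on Hist1h1a in that IP by 21.1-fold (9.76 to 47.9). The IP-to-input ratio of Hist1h1c was 0.678 in Miwi ADH/- (0.395 to 1.18), 0.890 in Miwi -/- (0.513 to 1.51) and 0.444 in Miwi +/- (0.283 to 0.680), so that it was below its input beyond counting error in Miwi +/- only. From the medians of these comparisons it lay at 0.01, 1.24 and -0.20 on the log2 scale. In Miwi +/- it was thus near the middle, with 41.9% of the filtered genes lower. For Hist1h1d the 0 reads in the IP against 9 in the input of Miwi +/- give a ratio of at most 0.645, the upper bound of the interval, and the bounds in Miwi ADH/- (2.76) and Miwi -/- (1.18) include 1. The median log2 difference of all filtered genes in Miwi +/- was -0.77, so the bound of 0.645 does not set Hist1h1d apart from them.

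Counted at 2-fold, 1 of the 6 genes (Hist1h1t) was above input in Miwi ADH/- and 0 were below it, where 4.83% of the filtered genes were higher and 25.0% lower. In Miwi -/- 1 (Hist1h1e) was higher and 2 (Hist1h1t and Hist1h1a) lower, where 3.67% were higher and 60.9% lower. In Miwi +/- 1 (Hist1h1e) was higher and 1 (Hist1h1a) lower, where 4.24% were higher and 40.6% lower. These counts shift with the scale between columns: from the median, or with median-of-ratios factors or equal totals, no H1 gene was 2-fold lower in the IP of any genotype, Hist1h1t joined the higher ones in Miwi +/- and Hist1h1c joined them in Miwi -/-.

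**Figure D4:**
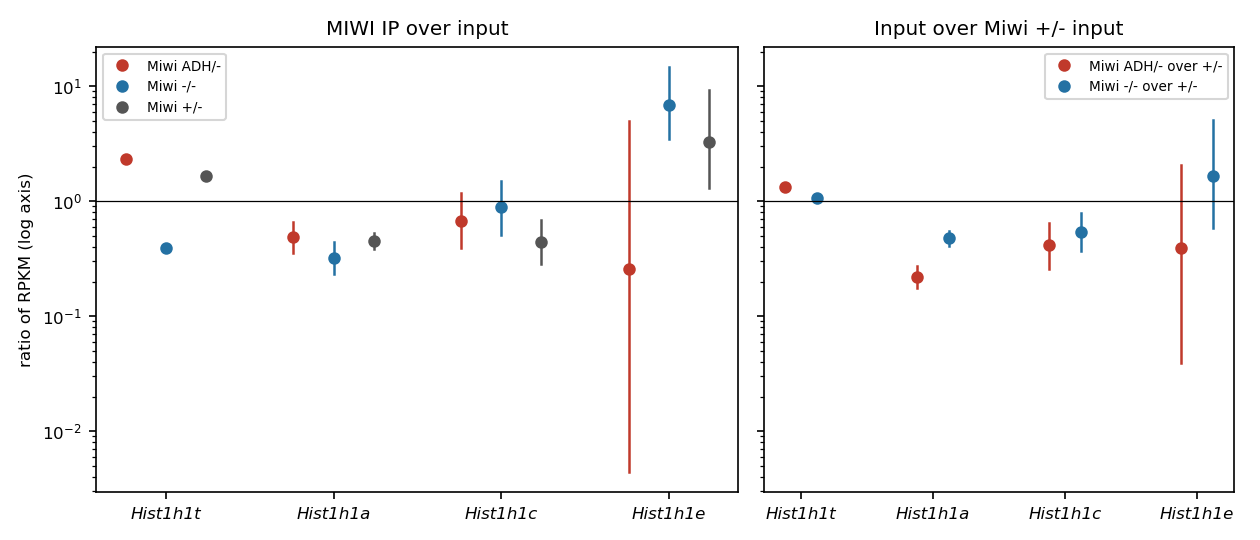
Left, RPKM in the IP over RPKM in the input of the same genotype; right, RPKM in each mutant input over the Miwi +/- input; both for the 4 H1 genes that pass the filter, on a log axis with exact 95% counting intervals. Hist1h1t lies at 2.32 in Miwi ADH/-, 0.394 in Miwi -/- and 1.66 in Miwi +/-, and Hist1h1a lies below 1 in all comparisons shown.

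Enrichment over the background IP compares IP-to-input ratios with those of Miwi -/-. For Hist1h1t the ratio was 5.90 times that of Miwi -/- in Miwi ADH/- (5.45 to 6.39) and 4.21 times that of Miwi -/- in Miwi +/- (3.87 to 4.57), with log2 differences of 2.56 and 2.07. These comparisons share the Miwi -/- columns. Most genes were shifted the same way, with medians of 1.06 and 0.67, and from those Hist1h1t lay 1.5 and 1.4 higher. Its log2 differences were 1.06 in Miwi ADH/- and 1.02 in Miwi +/- with median-of-ratios factors, and 1.55 and 1.36 with equal totals. For Hist1h1a the ratios, 1.5 in Miwi ADH/- (0.961 to 2.35) and 1.39 in Miwi +/- (0.974 to 2.00), had intervals that include 1. Hist1h1e was 0.0381 times the Miwi -/- ratio in Miwi ADH/- (0.000632 to 0.832, from 1 IP read) and 0.481 times in Miwi +/- (0.143 to 1.72). Hist1h1c was 0.762 times the Miwi -/- ratio in Miwi ADH/- (0.350 to 1.66) and 0.499 times in Miwi +/- (0.247 to 1.02), and from the medians it lay at -1.32 and -1.51. In each of these comparisons 1 of the 6 genes, Hist1h1t, was at least 2-fold higher and 1, Hist1h1e, at least 2-fold lower. Of the filtered genes 51.9% were higher and 7.30% lower for Miwi ADH/-, and 39.3% were higher and 9.56% lower for Miwi +/-. From the median, with median-of-ratios factors or with equal totals, Hist1h1c joined Hist1h1e as at least 2-fold lower in both comparisons. On those scales 13.5% to 21.7% of the filtered genes were lower for Miwi ADH/- and 15.2% to 20.1% for Miwi +/-.

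Between the catalytic mutant and the control, the IP-to-input ratio of Hist1h1t was 1.40 times as high in Miwi ADH/- as in Miwi +/- (1.33 to 1.48). Its log2 difference of 0.49 lay 0.11 above the median of 0.38 over the filtered genes, 44.1% of which were higher. Hist1h1a (1.08, 0.761 to 1.53), Hist1h1c (1.53, 0.751 to 3.11) and Hist1h1e (0.0793, 0.00127 to 1.87) had intervals that include 1. Counted at 2-fold, 0 of the 6 genes were higher and 1, Hist1h1e, was lower, where 20.5% of the filtered genes were higher and 7.56% lower.

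**Figure D5:**
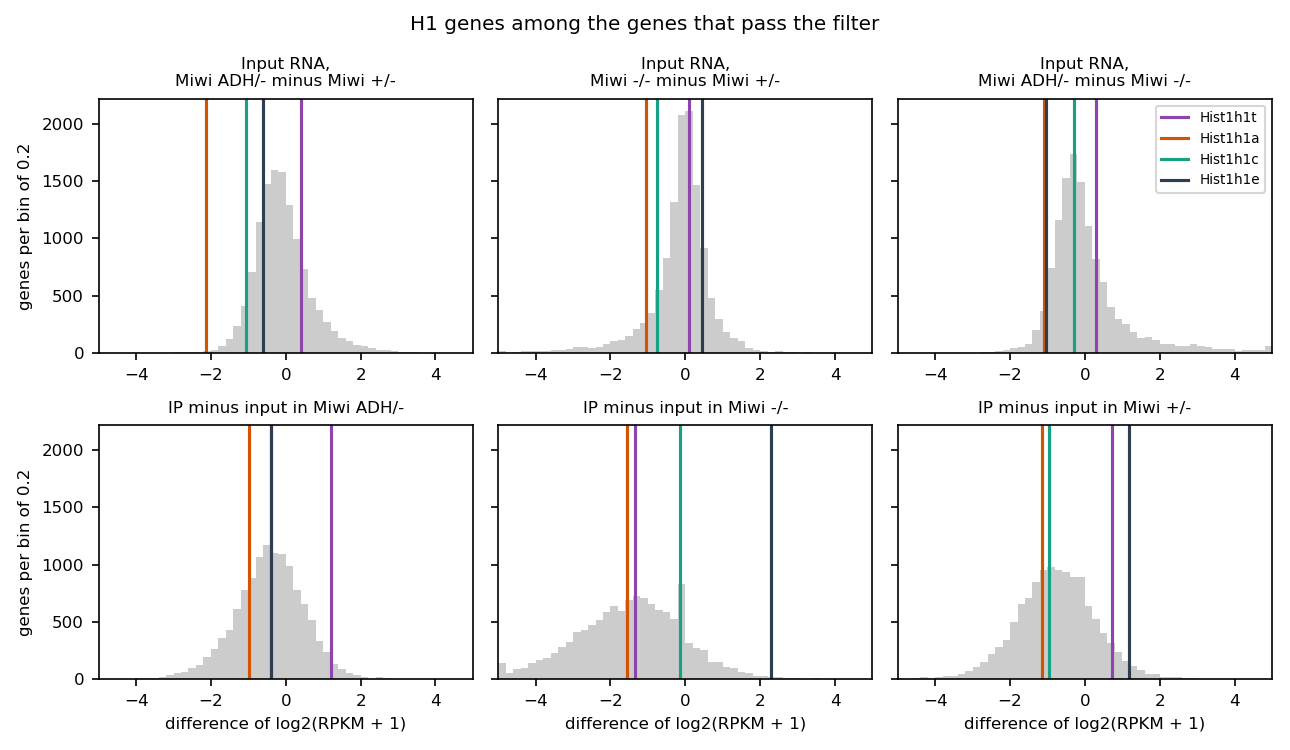
Histograms of the difference of log2(RPKM + 1) over the 12246 filtered genes (bins of 0.2, values beyond 5 placed in the end bins), with vertical lines for the 4 H1 genes that pass the filter; Hist1h1c and Hist1h1e lie on one line at -0.40 in Miwi ADH/-. Hist1h1a lies at the lower edge in the Miwi ADH/- against Miwi +/- inputs at -2.13, and Hist1h1t lies on the right side at 1.21 in Miwi ADH/-, in the middle at -1.34 in Miwi -/- and on the right side at 0.73 in Miwi +/-.

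Likeness of pattern was measured as the root-mean-square difference of log2(RPKM + 1) over the 6 columns after each gene's own mean was taken off, among the 6121 filtered genes whose mean level reached the median. The gene nearest to Hist1h1t was ENSMUSG00000026094, at 0.20, with 20.5, 3.28 and 15.9 RPKM in the Miwi ADH/-, -/- and +/- IPs and 9.63, 9.49 and 8.51 RPKM in the matching inputs. The gene nearest to Hist1h1a was ENSMUSG00000016487, at 0.33, with 1.31, 2.14 and 7.24 RPKM in the IPs and 4.81, 9.09 and 10.8 RPKM in the inputs. Within 0.5 of Hist1h1t lay 151 genes, of Hist1h1a 18, of Hist1h1c 846 and of Hist1h1e 1. These counts depend on how much each member varied over the columns, with standard deviations of 0.86, 1.05, 0.44 and 1.24. A gene with no change over the columns would also lie within 0.5 of Hist1h1c, so its 846 genes need not share its pattern. The table used here pairs neither ID with a name.

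How the authors' counting treated reads that match several H1 genes, and whether it used strand, is stated in no label or header. The coding sequences of the somatic variants are alike, so the low levels of Hist1h1c, Hist1h1d, Hist1h1e and Hist1h1b are uncertain, as are reads of any gene that overlaps one of them.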

How the data were processed

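RNA of MIWI IPs and inputs was sequenced in 12 samples of 6 groups. Per the submitters' processing notes, TopHat, Bowtie and build mm9 were used, with no version or role given; no source used here names the counting tool or annotation. The deposited values are RPKM computed by the authors, 1 column per group, and the file headers name that unit for the Miwi +/- columns only; it was assumed for the others. Whether a column is 1 sample or both pooled is not stated. Column names carry no replicate number, so no model across replicates was fitted.

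Whole reads were recovered from the steps of the RPKM values (tolerance 0.002 reads plus 1e-07 of the number), and a solution was found for 100% of 17452 genes with values in 2 or more columns. With values in only 2 columns some solution is nearly always found, so this share does not show that those reads are right. Read totals, 4172540 to 10581229 per column, were set so that the largest share of gene lengths came out whole (46.6% of 8912 lengths under 2500 bases, within 0.05 bases, against 11.4% for the next candidate), with Hist1h1a within 20% of its RefSeq length; Hist1h1b, seen in 1 column, would be 371.5 bases long at 1 read and was taken as 2 reads. Ratios have exact 95% intervals (Clopper-Pearson given the sum of the reads, or the conditional odds ratio) from scipy 1.17.1. The procedure was tested on simulated data. Alternatives were a pseudocount of 0.1 in place of 1, other scales, no filter and a 1.5-fold count. All 6 H1 genes are named with their level in every column, but each comparison names only some of them. The nearest pattern is named for the 2 most abundant. The members and lists were chosen with earlier results of these data known. The reference gene list matched 0 Ensembl IDs, so the other linker histones, histone mRNA factors, S-phase genes and cell type markers listed by symbol gave no values and are not analysed here.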

Additional observations from a re-analysis of the deposited data

Results flagged for a closer look

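On the deposited scale, Hist1h1t lay above its input in the IPs of Miwi ADH/- and Miwi +/- and below it in that of Miwi -/-. The log2 difference of IP and input was 1.21 in Miwi ADH/- and -1.34 in Miwi -/-, which are 2.56 apart, and 0.73 in Miwi +/- and -1.34 in Miwi -/-, which are 2.07 apart. The Miwi -/- value turned to 0.032 relative to the median of all genes, 0.59 with median-of-ratios factors and 0.28 with equal totals. The gaps were then 1.5, 1.06 and 1.55 for Miwi ADH/-, and 1.4, 1.02 and 1.36 for Miwi +/-. Hist1h1e had the reverse order, though only Miwi ADH/- and Miwi -/- differed beyond counting error. Its log2 difference was -0.40 in Miwi ADH/- and 2.30 in Miwi -/-, a gap of -2.70, and -0.40 in Miwi ADH/- and 1.18 in Miwi +/-, a gap of -1.58; the Miwi ADH/- value rests on 1 IP read and 2 input reads. With 1 column per group these differences were not tested.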

How the results depend on the processing

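No paired analysis was possible because the table has 1 column per group and the columns carry no replicate numbers; for the same reason no replicate could be left out. Of 54 recounts of H1 genes past 2-fold, 44 were within 1.5 times the main count. The recount adds higher and lower genes together and ignores which genes they are. With equal column totals, the count for IP against input in Miwi +/- stayed at 2. There Hist1h1t joined the higher genes and Hist1h1a was no longer lower. In Miwi -/- the same scale turned 1 higher and 2 lower into 2 higher and 0 lower. Among Miwi ADH/- against Miwi +/- inputs the main count of 2 became 1 relative to the median and 1 with median-of-ratios factors. Among Miwi -/- against Miwi +/- inputs the main count of 1 became 0 with median-of-ratios factors and 2 at 1.5-fold. Among Miwi ADH/- against Miwi -/- inputs the main count of 2 became 0 relative to the median, 0 with median-of-ratios factors and 1 with equal column totals. For IP against input, the main count of 2 in Miwi +/- became 4 at 1.5-fold, and the main count of 1 in Miwi ADH/- became 3 with a pseudocount of 0.1 and 2 at 1.5-fold. Of 216 recomputed differences of single genes, 60 had no bounded counting interval; of the other 156, 110 moved by no more than 0.5 of the interval's width on the log2 scale and 46 by more. The sign changed in 27. Of these 4 had been at least 2-fold, all for IP against input in Miwi -/-: Hist1h1t, at -1.34, became 0.032 relative to the median, 0.59 with median-of-ratios factors and 0.28 with equal totals, and Hist1h1a, at -1.57, became 0.29 with median-of-ratios factors. The other 23 had been smaller, and 9 of them moved beyond that limit. Relative to the median, with median-of-ratios factors and with equal totals, Hist1h1c in the same comparison, at -0.13, became 1.24, 1.44 and 1.21. The Hist1h1a enrichment over Miwi -/-, at 0.59 in Miwi ADH/- and 0.43 in Miwi +/-, became -0.47, -0.86 and -0.39 in Miwi ADH/- and -0.24, -0.56 and -0.23 in Miwi +/-. For IP against input in Miwi -/-, the scale itself moves the median of all genes, by 1.37 where the median is taken off. The Miwi -/- IP, with 761525 listed reads, and the 1 to 44 reads per column of Hist1h1e limit what its comparisons can show.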
